A study of Mus musculus with 2 samples.

Results

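The epidermal keratinocyte program was examined as 43 genes that were listed by name: 13 keratins, the genes of desmosomes and other cell junctions, hemidesmosome genes, cornified envelope genes and epidermal regulators. Of the 43 genes, 42 had a row in the count table of 24421 rows, and all 42 had a count above 0 in at least 1 library. *Flg* was not analysed here. The counts come from 2 RNA-Seq libraries of primary cells of newborn mice. For the chondrocyte library, rib cartilage was digested with collagenase in successive steps and the cells were used within 2 passages. For the dermal fibroblast library, dorsal skin was digested with collagenase in the cold. According to the study's methods, the dermis was removed before the skin was dispersed into single cells. The strain and sex of the mice, the number of animals behind each library and any genetic modification are not given for these 2 cultures in the sources used here. With 1 library per cell type, no difference had a replicate check and no test between cell types was made. In such bulk libraries, more cells of a type and more RNA per cell cannot be told apart.

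Keratinocytes build the epidermis in layers. In the basal layer they contain intermediate filaments of *Krt5* and *Krt14*, are held to the basement membrane by hemidesmosomes and depend on the transcription factor *Trp63*. As they move up they switch to *Krt1* and *Krt10*, and in the outermost layers they assemble a cornified envelope from proteins such as loricrin and involucrin. Injured or cultured epidermis and parts of the hair follicle contain the stress keratins *Krt6a*, *Krt6b*, *Krt16* and *Krt17*. Simple epithelia use *Krt8*, *Krt18*, *Krt7* and *Krt19* in their place. A keratin filament needs a type I and a type II keratin, and desmosomes anchor these filaments between neighbouring cells.

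The library totals were 18788599 counts for chondrocytes and 17563724 for dermal fibroblasts. Most markers were in accord with the labels: *Col2a1* had 1447098 counts in chondrocytes against 0, and *Col1a1* had 322379 counts in dermal fibroblasts against 39143. All 5 chondrocyte markers were over 2-fold higher in chondrocytes. Of 5 dermal fibroblast markers, 4 were over 2-fold higher in dermal fibroblasts. The other, *Lum*, was within 2-fold, with 3191 counts in chondrocytes and 2881 in dermal fibroblasts. Counts were scaled by TMM (trimmed mean of M values, a factor that corrects the library total for composition). Counts under 3 were set to 3 before a gene was called over 2-fold higher, and pairs of counts below give chondrocytes first. The intervals beside ratios are 95% intervals that cover counting error only. For a gene with 0 counts in a library the floored fold is given, with the 0 set to 3, and its interval starts below that value. For genes with 1 or 2 counts in a library the ratio is printed without the floor. It is not comparable in size with the floored folds, whereas the plots of folds use the floor for all genes. A library with 0 counts of a gene allows a level of up to 0.167 CPM (counts scaled to a library of a fixed size, so that depth cancels) in chondrocytes and 0.163 CPM in dermal fibroblasts.

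Most of the epidermal genes were higher in the dermal fibroblast library. Over 2-fold differences in favour of dermal fibroblasts were found for 31 of the 42 genes and in favour of chondrocytes for 5, and 6 were within 2-fold. Over all 17718 genes with counts, 13.9% were over 2-fold higher in dermal fibroblasts and 10.7% were over 2-fold higher in chondrocytes. The whole counting interval lay beyond 2-fold for 24 epidermal genes in the direction of dermal fibroblasts, against 8.73% of all genes, and for 3 in the direction of chondrocytes, against 5.88% of all genes. The median log2 fold of the 42 genes, dermal fibroblasts over chondrocytes, was 2.48, whereas the median over all genes was -0.039. The 5 genes higher in chondrocytes were *Krt7*, *Krt8*, *Krt18*, *Dsg2* and *Itga6*.

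**Figure D1:**
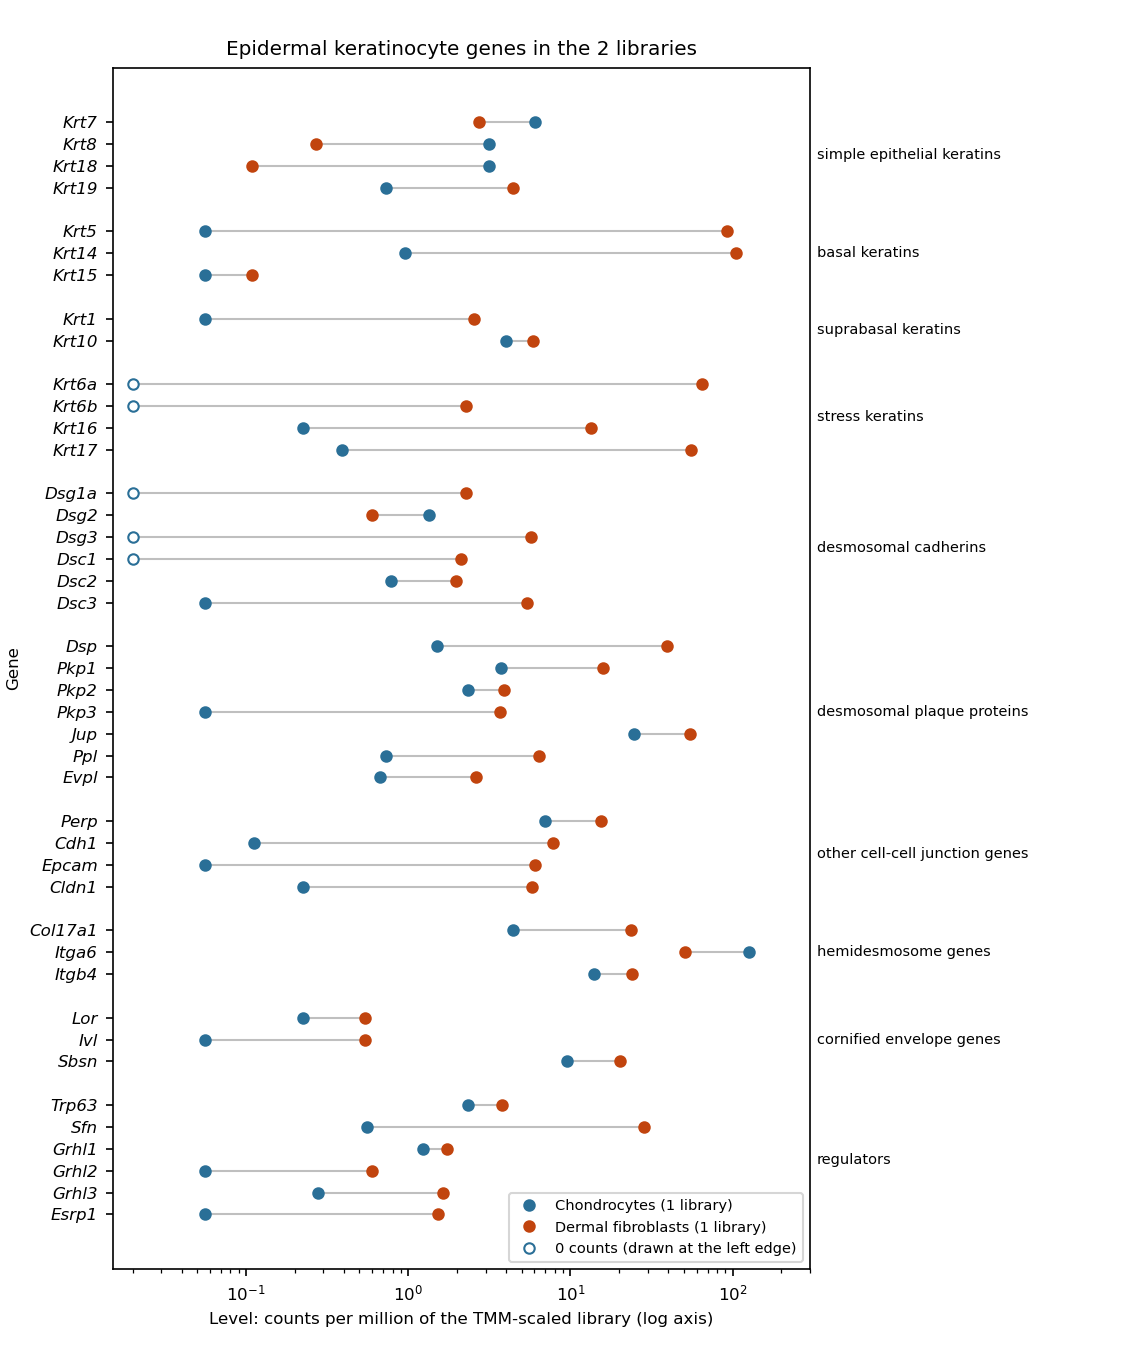
Level of each of the 42 epidermal genes in CPM of the TMM-scaled library (log axis), with 1 point for the chondrocyte library and 1 for the dermal fibroblast library, joined by a line. Open points at the left edge are 0 counts, found for 5 genes in chondrocytes, and the longest lines belong to *Krt6a* and *Krt5*.

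The program was a small part of both libraries. The 42 genes together took 12633 counts in dermal fibroblasts, 0.0719% of the library (Clopper-Pearson interval 0.0707% to 0.0732%), and 3948 counts in chondrocytes, 0.0210% (interval 0.0204% to 0.0217%). In chondrocytes a single gene, *Itga6*, held 57.0% of these counts. Without it the remaining genes had 1697 counts in chondrocytes against 11695 in dermal fibroblasts, a 6.71-fold difference (interval 6.38 to 7.06). In dermal fibroblasts the counts were spread more widely: *Krt14* held 15.3% of them, 20 of the genes had at least 100 counts, and *Krt15* and *Krt18* were the only ones at 3 counts or fewer. In chondrocytes 15 genes had 3 counts or fewer, and *Krt6a*, *Krt6b*, *Dsg1a*, *Dsg3* and *Dsc1* had 0.

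The basal keratins *Krt5* and *Krt14*, the partners of the basal layer filament, showed some of the widest gaps. *Krt5* (type II, chr15:101707069-101712905 in GRCm38) had 1 count in chondrocytes against 1693 in dermal fibroblasts, a ratio of 1648 with an interval from 295 to 65144, which becomes 549-fold with the chondrocyte count set to 3. *Krt14* (type I, chr11:100203162-100207510) had 17 and 1939 counts and was higher in dermal fibroblasts by 111-fold (interval 69.2 to 191). The third basal keratin, *Krt15*, which marks basal cells and hair follicle stem cells, had 1 and 2 counts, too few in both libraries for a fold. The genes of this class therefore did not share 1 level: in dermal fibroblasts *Krt14* and *Krt5* ranked first and second of the 42 genes per length of transcript, at 62.0 and 42.0 CPM per kb, and *Krt15* ranked last at 0.0639 CPM per kb. On the same scale in that library *Krt14* stood above 93.4% of the genes with a transcript length, and *Col1a1* was at 2953 CPM per kb.

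The stress keratins were high in dermal fibroblasts together with the basal pair. *Krt6a* (type II, chr15:101689928-101694305) had 0 counts in chondrocytes against 1189 in dermal fibroblasts, a floored fold of 386 with an interval that starts at 313. *Krt17* (type I, chr11:100256215-100261029), a keratin of the hair follicle and of wounded epidermis, had 7 and 1024 counts and was 142-fold higher (interval 68.9 to 355). *Krt16*, a type I partner of the *Krt6* keratins, had 4 and 247 counts, a 60.1-fold difference (interval 23.2 to 222). *Krt6b* had 0 and 42 counts, a floored fold of 13.6 with an interval that starts at 10.6. All 4 were thus higher in dermal fibroblasts with a whole interval beyond 2-fold, but their levels differed, from 35.9 CPM per kb for *Krt17* to 1.02 for *Krt6b*. Per length, *Krt6a* was 27.9 times as high as *Krt6b* in dermal fibroblasts (interval 20.5 to 39.0).

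*Krt6a* and *Krt6b* are neighbouring, near-identical genes, so that short reads can be hard to place between them. Over 1662 aligned coding bases of the GENCODE vM1 transcripts (annotated on NCBIM37), 97.8% were identical, and the longest identical stretch was 280 bases. Of the windows of 75 bases, the read length, in the longest *Krt6a* transcript, 40.6% were also found in transcripts of other protein-coding genes, most often *Krt6b*, and 39.1% of the *Krt6b* windows were found elsewhere. The share was 6.19% for *Krt16*, 5.91% for *Krt14* and 5.20% for *Krt5*. How the authors treated reads with several matches is not given in the sources used here, so the split between the genes is uncertain. The coding window in which they differ most, bases 802 to 876 counted from the start codon in each gene, is shown because reads over such positions can tell the genes apart. Capitals mark its 12 differences.
Krt6a: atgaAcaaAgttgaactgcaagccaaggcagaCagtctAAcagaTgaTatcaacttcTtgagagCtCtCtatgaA
Krt6b: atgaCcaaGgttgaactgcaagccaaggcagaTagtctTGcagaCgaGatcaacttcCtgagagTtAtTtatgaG

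The suprabasal pair was split, with *Krt1* over 2-fold higher in dermal fibroblasts and *Krt10* within 2-fold. *Krt1* (type II) had 1 count in chondrocytes against 47 in dermal fibroblasts, a ratio of 45.8 with an interval from 7.82 to 1845. Its partner *Krt10* (type I) had 72 and 108 counts, a ratio of 1.46 (interval 1.07 to 2.0). *Krt10* shares 146 exon bases with a gene on the opposite strand in GENCODE vM1, and whether the authors counted by strand is not given in the sources used here. In dermal fibroblasts, where *Krt1* and *Krt10* were at 1.04 and 2.80 CPM per kb, *Krt5* was 40.2 times as high as *Krt1* per length (interval 30.1 to 54.9) and *Krt14* was 22.1 times as high as *Krt10* (interval 18.2 to 27.1). In chondrocytes the order of the type I genes was the other way round, with *Krt14* at 0.291 times the level of *Krt10* (interval 0.161 to 0.499).

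The simple epithelial keratins split into both directions. *Krt8* (type II, chr15:101996711-102004342) had 56 counts in chondrocytes against 5 in dermal fibroblasts and was 11.5-fold higher in chondrocytes (interval 4.65 to 36.8). *Krt18* (type I, chr15:102028216-102032026), its filament partner, had 56 and 2 counts, a ratio of 28.8 in the same direction (interval 7.60 to 243). In chondrocytes the pair stood at 1.73 and 2.23 CPM per kb, a ratio of 0.776 whose interval of 0.526 to 1.14 includes equality. *Krt7* had 109 and 50 counts and was 2.24-fold higher in chondrocytes (interval 1.59 to 3.20). *Krt19*, also a keratin of hair follicle and basal cells, had 13 and 81 counts and was higher in dermal fibroblasts by 6.07-fold (interval 3.36 to 11.9).

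Markers of mesothelium, the simple epithelium that lines the chest wall, moved in the same direction as *Krt7*, *Krt8* and *Krt18* and opposite to *Krt19*. All 5 markers in the table were over 2-fold higher in chondrocytes, against 10.7% of all genes with counts. Each had its whole interval beyond 2-fold, against 5.88% of all genes with counts. *Msln* had 186 counts in chondrocytes against 17 in dermal fibroblasts, *Lrrn4* had 82 and 4, and *Wt1* had 66 and 16. The sum of the list was 26.6 CPM in chondrocytes and 2.55 CPM in dermal fibroblasts, and no marker of the list was at 0. The 3 notochord markers were at 0 in both libraries. Which cells the *Krt7*, *Krt8*, *Krt18* and *Krt19* counts came from, mesothelial cells, chondrocytes or others, was not tested.

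The promoters of *Krt5*, *Krt8* and *Krt18* are printed because *Krt5* had the largest fold toward dermal fibroblasts with counts under 3 set to 3, and the other two, a filament pair, went the other way. RefSeq windows on GRCm38.p6 from 250 bases before to 50 bases after the start of transcription were at hand for 18 of the 43 genes. They lie at chr15:101712856-101713155 on the minus strand for *Krt5*, chr15:102004293-102004592 on the minus strand for *Krt8* and chr15:102027966-102028265 on the plus strand for *Krt18*. Capitals mark matches on either strand. The TATA box was searched as TATAAA, and the motif of AP-1 factors was searched as TGANTCA in the same windows. For AP-2 factors the letters were GCCNNNGGC, and for Grainyhead factors they were AACCGGTT. The p53 family half-site, to which p63 also binds, was added to the search after the *Krt5* sequence was seen.
Krt5: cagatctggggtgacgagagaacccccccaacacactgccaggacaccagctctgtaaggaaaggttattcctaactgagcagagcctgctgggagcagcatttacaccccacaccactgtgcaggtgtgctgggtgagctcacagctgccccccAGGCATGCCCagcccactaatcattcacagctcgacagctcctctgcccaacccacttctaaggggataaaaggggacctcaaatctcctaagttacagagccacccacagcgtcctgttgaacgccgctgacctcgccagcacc
Krt8: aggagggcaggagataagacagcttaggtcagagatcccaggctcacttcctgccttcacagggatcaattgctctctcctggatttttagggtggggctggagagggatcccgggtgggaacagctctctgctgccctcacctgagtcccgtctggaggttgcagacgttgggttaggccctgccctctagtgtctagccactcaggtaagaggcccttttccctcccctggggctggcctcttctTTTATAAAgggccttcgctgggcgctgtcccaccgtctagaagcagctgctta
Krt18: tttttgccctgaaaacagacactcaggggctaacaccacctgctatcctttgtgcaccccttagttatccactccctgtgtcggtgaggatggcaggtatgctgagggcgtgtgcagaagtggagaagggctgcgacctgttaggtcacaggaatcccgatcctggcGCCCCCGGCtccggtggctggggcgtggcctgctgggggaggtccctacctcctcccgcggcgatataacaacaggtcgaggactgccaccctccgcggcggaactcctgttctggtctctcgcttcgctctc

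*Krt5* held 1 p53 family half-site, at position -95, and *Krt18* held 1 AP-2 match, at -83. *Krt8* held TATA box matches on both strands that overlap each other, at -1 on the strand of the gene and at -3 on the opposite strand. Of 32851 RefSeq promoter windows of this length, 8.36% held the half-site, 16.6% the AP-2 match, 13.6% the TATA box, 7.81% the AP-1 match and 0.146% the Grainyhead match. These matches describe letters in the windows and were not measured as binding in this series.

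Seen within each library, the keratin classes had different shares. In dermal fibroblasts the 13 keratins summed to 6429 counts, of which the basal class took 56.5% (interval 55.3% to 57.7%), the stress class 38.9% (interval 37.7% to 40.1%), the suprabasal class 2.41% (interval 2.05% to 2.82%) and the simple class 2.15% (interval 1.81% to 2.53%). In chondrocytes they summed to 337 counts, of which the simple class took 69.4% (interval 64.2% to 74.3%), the suprabasal class 21.7% (interval 17.4% to 26.4%), nearly all of it *Krt10*, the basal class 5.64% (interval 3.43% to 8.66%) and the stress class 3.26% (interval 1.64% to 5.77%). With *Krt6a* and *Krt6b* left out, the stress class took 24.5% and the basal class 69.9% of the dermal fibroblast keratin counts. Both genes belong to the stress class, so reads misplaced between them leave its sum unchanged. Leaving them out lowers the stress share by construction and does not show how misplaced reads affect the shares. With all 13 keratins, the intervals of the 2 libraries did not overlap for any class. These intervals cover counting error only, and the class shares within a library depend on each other. Summed over a class, the stress keratins were 221-fold higher in dermal fibroblasts (interval 124 to 444), the basal keratins 186-fold (interval 119 to 310) and the suprabasal keratins 2.07-fold (interval 1.56 to 2.77). The intervals of the basal and stress sums overlapped, and both lay above the suprabasal interval. Per length, the 6 type II keratins together stood at 0.657 times the 7 type I keratins in dermal fibroblasts (interval 0.625 to 0.690) and at 0.584 times in chondrocytes (interval 0.469 to 0.727).

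**Figure D2:**
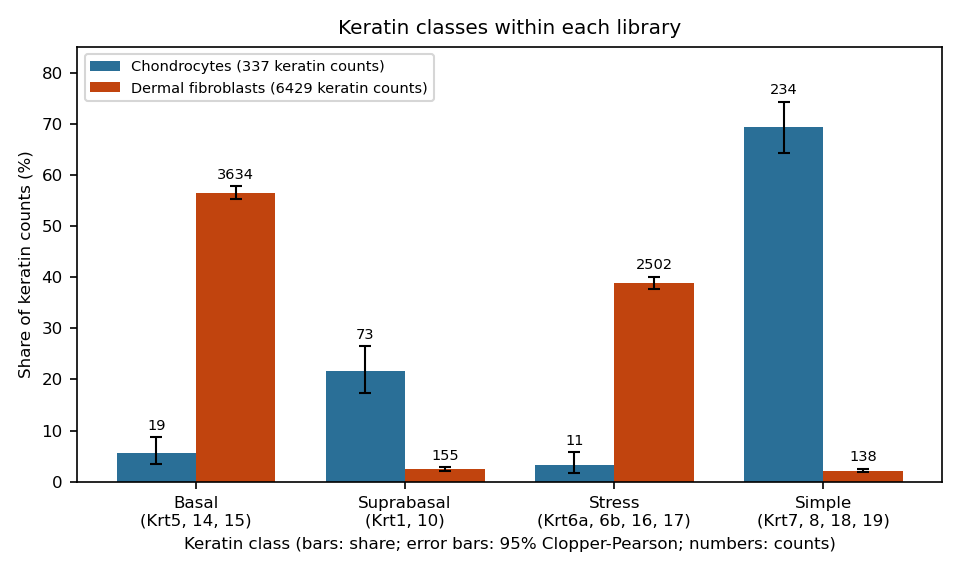
Share of the keratin counts of each library (%) in the basal, suprabasal, stress and simple classes, with 95% Clopper-Pearson intervals as error bars and the counts above the bars. The dermal fibroblast bars stand at 56.5% basal and 38.9% stress, and the chondrocyte bars at 69.4% simple and 21.7% suprabasal.

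Desmosomal cadherins, which join neighbouring cells across the membrane, were low but mostly higher in dermal fibroblasts (5 of 6 genes). *Dsg3*, the desmoglein of the lower epidermis, had 0 counts in chondrocytes against 105, a floored fold of 34.1 with an interval that starts at 27.2. *Dsc3*, the basal desmocollin, had 1 and 99 counts, a ratio of 96.4 with an interval from 16.9 to 3845. The cadherins of the upper epidermis, *Dsg1a* and *Dsc1*, had 0 counts in chondrocytes against 42 and 39. Their floored folds were 13.6 and 12.7, with intervals that start at 10.6 and 9.81. Of the *Dsg1a* windows of 75 bases, 29.2% were shared with other genes, most often *Dsg1b*, so its count is uncertain. The desmosomal cadherins of simple epithelia and other tissues had smaller ratios: *Dsg2* had 24 and 11 counts, 2.24-fold higher in chondrocytes (interval 1.06 to 5.07), and *Dsc2* had 14 and 36 counts, 2.50-fold higher in dermal fibroblasts (interval 1.32 to 5.02), so neither interval lay wholly beyond 2-fold.

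Among the plaque proteins, which tie the cadherins to keratin filaments, *Dsp* (desmoplakin) had 27 counts in chondrocytes against 722 in dermal fibroblasts, a 26.0-fold difference (interval 17.7 to 39.8). Of the plakophilins, *Pkp3* had 1 and 68 counts (ratio 66.2, interval 11.5 to 2653) and *Pkp1*, the suprabasal form, had 67 and 293 counts (4.26-fold, interval 3.26 to 5.64). *Pkp2*, which is also present in heart and simple epithelia, had 42 and 72 counts and stayed within 2-fold at 1.67 (interval 1.13 to 2.50). The plakins *Ppl* and *Evpl* were 8.84-fold (13 and 118 counts, interval 4.97 to 17.1) and 3.89-fold (12 and 48 counts, interval 2.04 to 8.05) higher in dermal fibroblasts. *Jup* (plakoglobin), which also serves in adherens junctions, had 440 and 1009 counts and was 2.23-fold higher (interval 1.99 to 2.50). Thus 6 of the 7 plaque genes passed 2-fold toward dermal fibroblasts, all but *Pkp2*.

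The other junction genes included the epithelial adhesion molecules. *Cdh1* (E-cadherin) had 2 counts in chondrocytes against 143 in dermal fibroblasts, a ratio of 69.6 (interval 18.9 to 580). *Epcam* had 1 and 112 counts, a ratio of 109 (interval 19.2 to 4345). *Cldn1*, the tight junction claudin of the epidermal barrier, had 4 and 106 counts and was 25.8-fold higher (interval 9.79 to 96.4). *Perp*, a desmosomal membrane protein and target of p63, had 125 and 283 counts and was 2.2-fold higher (interval 1.78 to 2.74), an interval that reaches below 2-fold.

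Hemidesmosome genes went in different directions. *Col17a1*, the transmembrane collagen of basal keratinocytes, had 79 counts in chondrocytes against 434 in dermal fibroblasts, a 5.35-fold difference (interval 4.20 to 6.89). *Itga6* had 2251 and 938 counts and was 2.46-fold higher in chondrocytes (interval 2.28 to 2.66), and it was the most abundant of the 42 genes in that library, at 29.1 CPM per kb. Its partner in hemidesmosomes, *Itgb4*, had 251 and 443 counts, 1.72-fold in the other direction (interval 1.47 to 2.01). Integrin alpha 6 also pairs with the widely expressed beta 1 chain. *Itgb4* shares 537 exon bases with a gene on the opposite strand, and *Dsp*, *Dsg2*, *Grhl2* and *Esrp1* share between 127 and 360, so counts of these genes would hold reads of both strands if strand was not used.

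The cornified envelope genes were at low levels, apart from *Sbsn*. *Lor* (loricrin) had 4 counts in chondrocytes against 10 in dermal fibroblasts, a ratio of 2.43 whose interval of 0.702 to 10.6 includes equality. *Ivl* (involucrin) had 1 and 10 counts, a ratio of 9.74 (interval 1.39 to 423). *Sbsn* (suprabasin), a secreted protein of the upper epidermis, had 171 and 370 counts and was higher in dermal fibroblasts by 2.11-fold (interval 1.75 to 2.54). All 3 genes passed 2-fold, but none had an interval wholly beyond it.

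Of the regulators, *Sfn* (stratifin, 14-3-3 sigma), an adaptor protein abundant in stratified epithelia, had the widest difference, with 10 counts in chondrocytes against 522 (50.8-fold, interval 27.4 to 107). *Trp63*, the master factor of stratified epithelia, had 42 and 70 counts and stayed within 2-fold at 1.62 (interval 1.09 to 2.44). The Grainyhead-like factors, which control barrier formation, were low: *Grhl1* had 22 and 32 counts (ratio 1.42, interval 0.798 to 2.56), *Grhl2* 1 and 11 (ratio 10.7, interval 1.56 to 461) and *Grhl3* 5 and 30 (ratio 5.84, interval 2.24 to 19.3). *Esrp1*, the epithelial splicing factor, had 1 and 28 counts, a ratio of 27.3 (interval 4.51 to 1115). The regulators therefore ranged from 1.42-fold to 50.8-fold, and *Trp63* and *Grhl1* were the 2 within 2-fold.

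**Figure D3:**
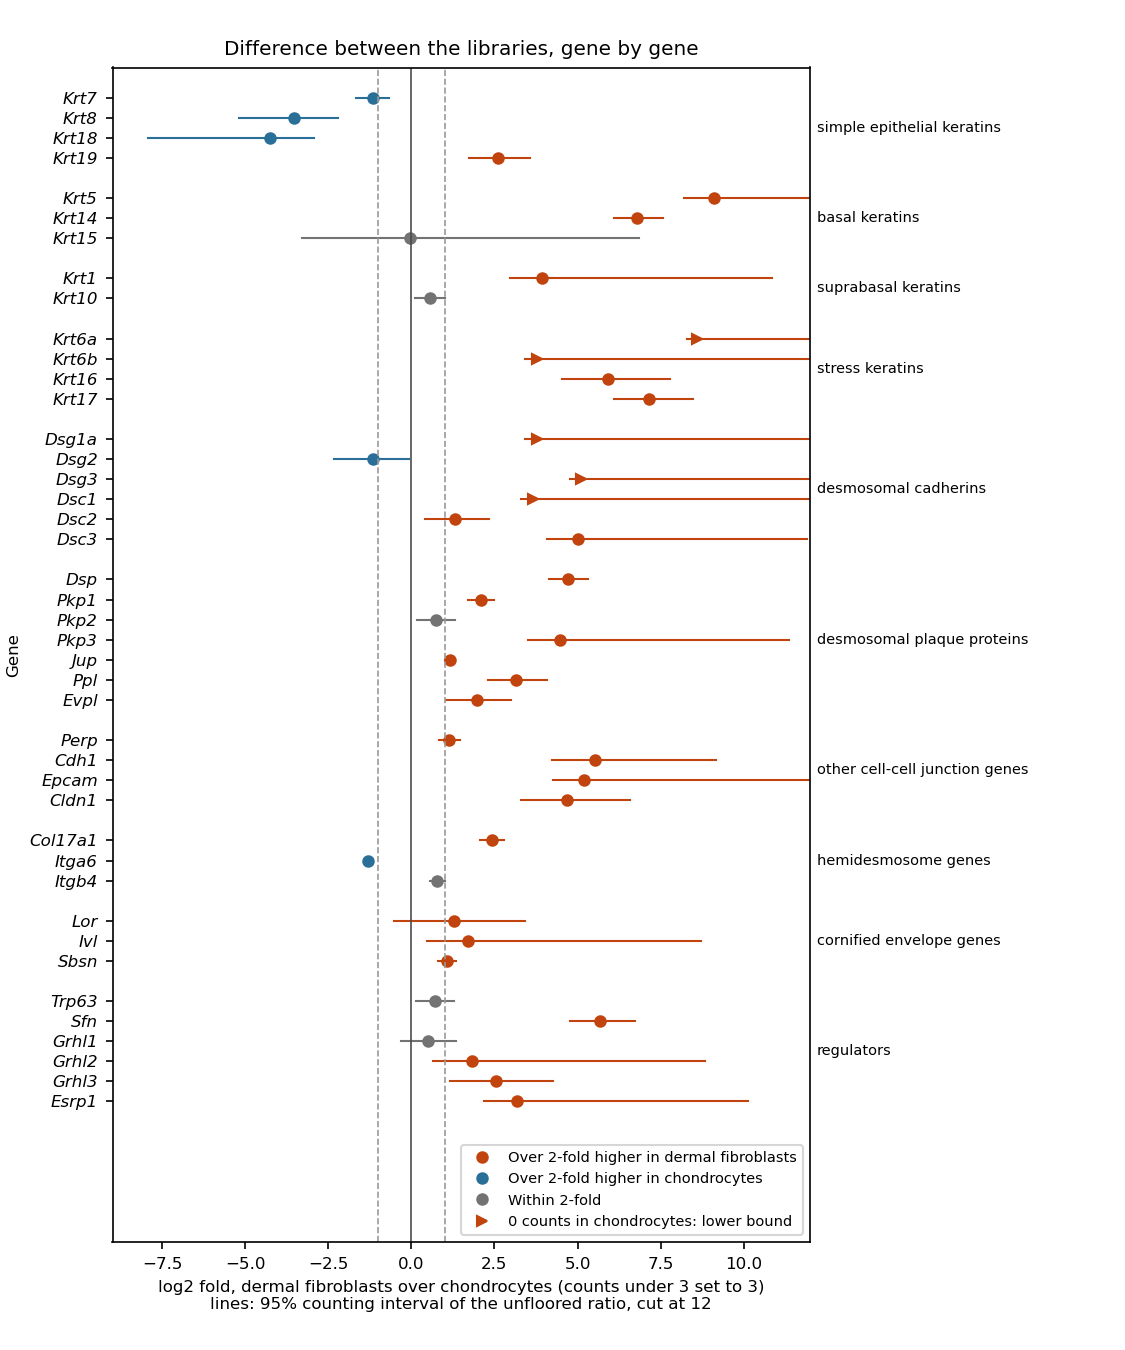
log2 fold of each epidermal gene, dermal fibroblasts over chondrocytes (points; counts under 3 set to 3), with 95% counting intervals of the ratio (lines) and dashed lines at 2-fold in each direction. Orange marks the 31 genes higher in dermal fibroblasts, blue the 5 higher in chondrocytes and grey the 6 within 2-fold. Triangles, named lower bounds in the plot, are floored folds of genes with 0 counts in chondrocytes, and their intervals start below them.

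Related epidermal genes were taken from 7 further lists. These were chosen with earlier results of these data known, so they are no independent check. Their counts of genes are to be read beside the shares over all 17718 genes with counts. These were 13.9% over 2-fold higher in dermal fibroblasts and 10.7% over 2-fold higher in chondrocytes. The shorter lists hold too few genes to be told apart from these shares. Of 10 epidermal transcription factors, 7 were over 2-fold higher in dermal fibroblasts and 2 in chondrocytes, with a median log2 fold of 1.77. Of the most abundant ones, *Klf4* was within 2-fold (1415 and 2090 counts, 1.44-fold) and *Klf5* was 2.39-fold higher in chondrocytes (500 and 215 counts, interval 2.03 to 2.82). Of 14 epithelial surface and trafficking genes, 8 passed 2-fold toward dermal fibroblasts and 0 toward chondrocytes, with a median of 1.18. *Cldn4* was 20.7-fold higher (7 and 149 counts), whereas *Cdh3* (65 and 97) and *Lsr* (48 and 59) were within 2-fold.

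Of 7 genes of the anchors to the epidermal basement membrane, 2 were over 2-fold higher in dermal fibroblasts and 1 in chondrocytes (median log2 fold 0.37). The 3 most abundant, *Plec* (6087 and 10734 counts), *Dst* (5575 and 5370) and *Cd151* (2349 and 1679), which many cell types express, were within 2-fold. Outside the rule for naming genes, chosen after its values were seen, the laminin chain gene *Lama3* (5 and 413 counts) was higher in dermal fibroblasts by 80.4-fold, with an interval that starts at 34.2. Of the 8 other epidermal keratins, 6 had counts and 2 were over 2-fold higher in dermal fibroblasts. These were *Krt79*, a keratin of the hair follicle infundibulum, with 0 and 239 counts, and *Krt80* with 20 and 237 counts (11.5-fold, interval 7.30 to 19.2). The floored fold of *Krt79* was 77.6, with an interval that starts at 62.6. *Krt77* had 1 and 5 counts.

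Of 21 late differentiation and barrier genes, 20 had counts, 14 were over 2-fold higher in dermal fibroblasts and 2 in chondrocytes (median log2 fold 1.45). *Sprr1a*, a cornified envelope precursor, had 2 and 449 counts (ratio 219, interval 60.2 to 1810), and *Asprv1*, a protease that processes filaggrin, had 4 and 418 counts (102-fold, interval 39.4 to 375). These levels stood well above those of *Lor* and *Ivl* in the same library. The most abundant gene of the list, *Cdsn*, went the other way. It had 12189 and 282 counts and was 44.4-fold higher in chondrocytes (interval 39.4 to 50.1). With it, the summed counts of the list were 5.75-fold higher in chondrocytes. Of the 6 hair follicle genes, 4 had counts, and 1 passed 2-fold in each direction (median log2 fold -0.41). *Lgr6* was 2.94-fold higher in dermal fibroblasts (59 and 178 counts, interval 2.18 to 4.01), and *Hoxc13* (24 and 23) and *Lhx2* (16 and 10) were within 2-fold. Over all 7 lists, 34 of 71 genes with counts were over 2-fold higher in dermal fibroblasts, against 13.9% of all genes. Toward chondrocytes 8 of the 71 passed, against 10.7% of all genes. The median log2 fold of the 71 genes was 0.78.

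**Figure D4:**
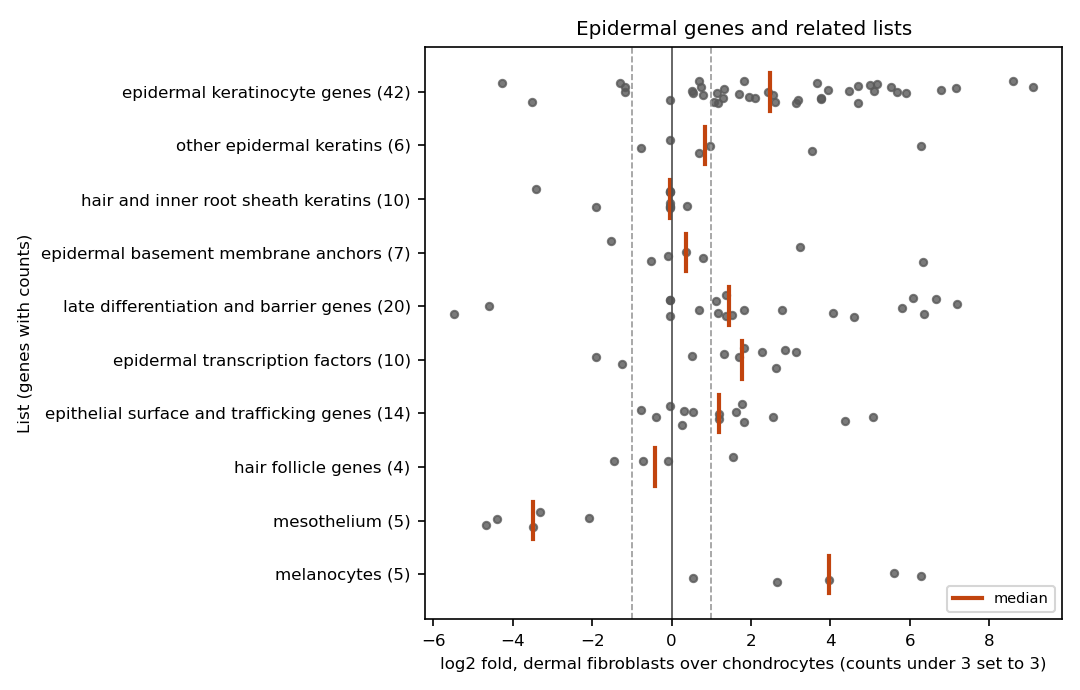
log2 fold, dermal fibroblasts over chondrocytes, of each gene (points) in the epidermal set, in 7 related lists and in the mesothelium and melanocyte marker lists, with list medians as orange bars and dashed lines at 2-fold. The epidermal genes have a median of 2.48 and the mesothelium markers a median of -3.49.

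Of 5 melanocyte markers, 4 were over 2-fold higher in the dermal fibroblast library, against 13.9% of all genes with counts. The list summed to 29.3 CPM there against 1.39 CPM in chondrocytes, where the pigment enzyme genes *Dct* and *Tyrp1* were at 0. *Dct* had 238 counts and *Tyrp1* had 149 in dermal fibroblasts, and *Pmel*, a melanosome protein gene, had 14 and 90. Of Langerhans cells, which also express *Epcam*, the defining marker *Cd207* was at 0 in both libraries, and *Cd74*, a gene of antigen-presenting cells in general, had 53 and 441 counts. The Merkel cell markers *Krt20* and *Atoh1* were at 0 in both libraries, and *Isl1* had 1 and 8 counts. The part of epidermal cells in the dermal fibroblast preparation was not tested. The keratinocyte markers *Krt5*, *Krt14* and *Dsp* were 26.0-fold or more higher there, and *Trp63* was within 2-fold.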

How the data were processed

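Read counts per gene were compared between 1 library of chondrocytes and 1 library of dermal fibroblasts, grouped by their titles. Per the submitters' processing notes and the methods, the authors called bases with CASAVA 1.8.2, aligned the single-end reads (75 bp, strand-specific mRNA kit) to mm10 using TopHat2 2.0.13, Bowtie2 2.2.3 and SAMtools 0.1.19, and deposited raw counts. The counting program, its annotation and its strand setting are not given in the sources used here.

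Scaling factors were TMM factors (edgeR 4.0.16 in R 4.3.3) over all 24421 rows, in 27 of which the symbol had become a date. Folds and Clopper-Pearson intervals came from scipy 1.17.1 and pandas 2.3.3 (numpy 2.4.6, Python 3.11.15), and the calculation was tested on simulated data. Levels per kb used the longest GENCODE vM1 protein-coding transcript (all 42 genes, 85.5% of genes with counts). Gene positions are those of RefSeq on GRCm38.p6. Alternatives were 5 other scalings (DESeq2 1.42.0 among them), 2 other floors, a filter at 10 counts and stricter thresholds. As PCR copies were not marked by molecular identifiers, intervals cover counting error only. All listed genes are named, and of each further list the 3 with the most counts, unless stated; some values of these lists are not reported here. Genes and lists were chosen with earlier results of these data known.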

Additional observations from a re-analysis of the deposited data

How the results depend on the processing

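No paired analysis was possible because there was a single library of either cell type. Between 23 (fold over 4) and 31 epidermal genes passed toward dermal fibroblasts across the alternatives, against 31 as reported, and the number toward chondrocytes was 5 under each scaling, floor and filter, 2 with a fold over 4 and 3 with the bound of the counting interval over 2. The median log2 fold of 2.48 became 1.94 with a floor of 10 counts and 2.87 with a floor of 1. Total counts moved all log2 folds by 0.14 and *Actb* by -0.12 relative to TMM. Besides these stricter thresholds, scalings and floors changed the calls of 4 genes: *Sbsn* was within 2-fold with *Actb*, and *Grhl2*, *Lor* and *Ivl* with a floor of 10 counts, where *Lor* and *Ivl* went to -0.039 because both libraries were then at the floor. With *Krt6a* and *Krt6b* left out, the keratin shares of dermal fibroblasts became 69.9% basal, 24.5% stress, 2.98% suprabasal and 2.65% simple. Depth limits the 15 genes with 3 counts or fewer in chondrocytes, whose ratios have wide intervals or rest on the floor.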

Other observations

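In the related epidermal lists 8 of 71 genes with counts were over 2-fold higher in chondrocytes, against 10.7% of all genes, so their number was near the background. *Cdsn* (corneodesmosin, an adhesion protein of the cornified layer) had 12189 counts in chondrocytes against 282 in dermal fibroblasts and was 44.4-fold higher in chondrocytes (interval 39.4 to 50.1). *Calml3*, a calmodulin-like protein of stratified epithelia, had 190 and 8 counts and was 24.4-fold higher (interval 12.1 to 57.3). These 2 genes were the ones over 2-fold higher in chondrocytes among the 21 late differentiation and barrier genes, and *Cdsn* made that list's summed counts 5.75-fold higher in chondrocytes (12495 and 2231 counts) although its median log2 fold pointed to dermal fibroblasts.

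Of 12 hair and inner root sheath keratins, 10 had counts, 3 exceeded 3 counts in a library, and 2 were over 2-fold higher in chondrocytes. *Krt83* had 31 counts in chondrocytes against 0 in dermal fibroblasts, a floored fold of 10.6 toward chondrocytes with an interval that starts at 8.13. *Krt85* had 11 and 0 counts (floored fold 3.77, interval from 2.58), and *Krt31* had 0 and 4. *Calml3* falls outside the rule for naming genes and was named after its values were seen.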
